A study of Rattus norvegicus with 12 samples.

Results

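Transcripts of the left and right atrium were compared in sham-operated rats, on 3 left and 3 right arrays chosen by their titles out of the 12 arrays of the series. All animals were male Sprague-Dawley rats of 225 to 275 g, and no allele or drug is named for any group. Tissue was the atrial appendage, the pouch of each atrium, taken 28 days after the sham operation. The other 6 arrays hold left and right atria taken 28 days after an aorto-caval shunt, which joins the large abdominal vessels and overloads the heart with volume. They are used below as separate arrays for the same chamber difference, and they also enter the estimate of the spread behind each SE and p-value. Each array held RNA from a pool of 2 tissues, so the p-values measure only the spread between pools, 3 per group, and the spread between single animals cannot be seen. The spread between pools was estimated from all 4 groups together, so it can be smaller or larger than within the sham groups. Age is not given in the labels. The labels name atrial tissue as the source, but their tissue field also mentions ventricles, so markers of ventricular muscle are given with the results.

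The atria look alike but have different origins and tasks. In the embryo the sinus node programme led by Shox2 is active at the venous inlet of the right atrium. In the adult the right atrium carries the pacemaker and receives blood from the body, and the left atrium receives blood from the lungs. Muscle, fibroblasts, vessels, lymphatics, nerves, the mesothelial covering and immune cells all contribute RNA to an appendage. In such bulk samples fewer cells of a type and less RNA per cell cannot be told apart.

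The authors' values are log2 RMA values per probe set, so a difference of 1 is 2-fold, and every difference below is left minus right. Array medians lay between 5.44 and 5.47, and 2 arrays of the same sham group correlated at 0.996 on average over all probe sets, against 0.978 to 0.981 with the other chamber. The control probe sets were not level between the chambers. The 45 spike probe sets, which detect foreign RNAs added in the laboratory, differed by -1.25 to 0.27 with a median of -0.15. In 19 of them all left arrays lay below all right arrays, and in 3 above. The difference between the 3' and 5' probe sets of beta-actin, which grows as RNA degrades, was 1.58 to 1.82 on the right sham arrays and 1.31 on each left sham array. For GAPDH this measure differed by -0.14 between left and right, and for hexokinase by 0.04 with overlapping arrays. The labels name no processing batch, so a difference in handling that follows the chambers and the chambers themselves cannot be told apart. For that reason the largest absolute spike shift, 1.25 (2.38-fold), is used below as the yardstick for a large difference. The 12 control probe sets for rat genes, which detect RNAs of the tissue itself, differed by -0.75 to 1.59, at the upper end beyond that yardstick. In 8 of them all left arrays lay above all right arrays, and in 2 below.

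**Figure D1:**
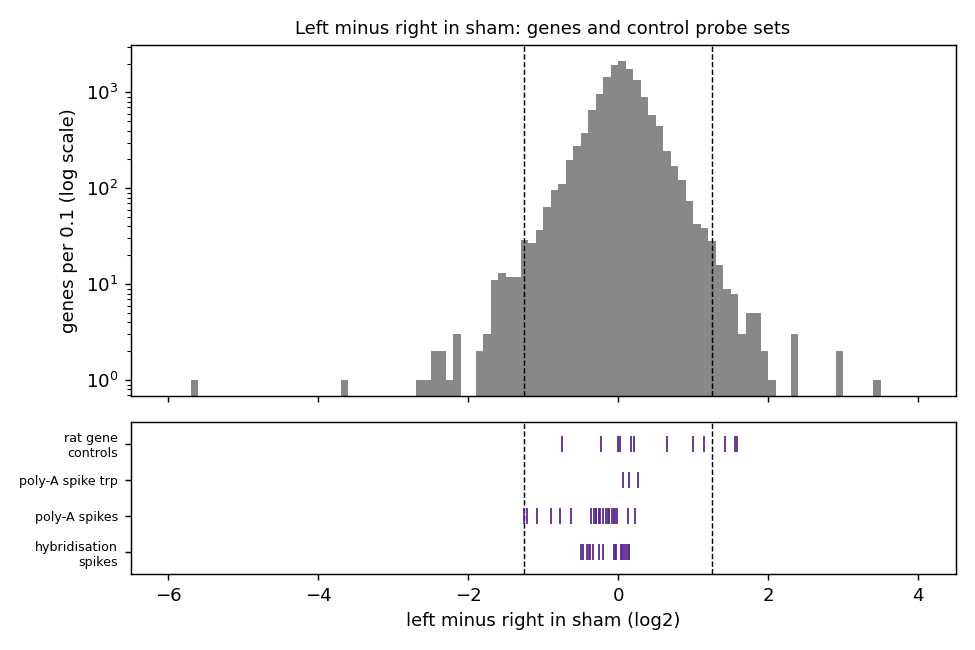
Left minus right difference in sham animals (x axis, log2) for 14217 genes (upper panel, genes per bin on a log scale) and for the control probe sets (lower panel, 1 tick per probe set). The dashed lines mark the largest absolute spike shift, 1.25; 142 genes past the threshold lie outside them, with Myl2 far to the left at -5.69.

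The chambers differed widely. Of 31042 probe sets, 11214 passed an adjusted p of 0.05 (36.1%; limma, Benjamini-Hochberg over all probe sets), 6228 of them higher in the left and 4986 higher in the right atrium. Counted by gene, with the probe set of the highest mean standing for the gene, 5346 of 14217 passed (37.6%), 3161 higher on the left (22.2%) and 2185 higher on the right (15.4%). The median of all genes was 0.04. In 7511 genes (52.8%) the 3 left and the 3 right arrays did not overlap. Any list of genes is therefore likely to hold many calls, and each count below is to be read against 37.6%. Likewise, a statement that arrays do not overlap is to be read against 52.8%. The split depends on the scaling. With the mean of the spike controls subtracted from each array, the median of all probe sets moved from 0.02 to 0.25, and 12381 of 14223 calls (87.0%) were left-higher in place of 55.5%. Averaged over the probe sets of each gene, 63.9% of the calls were left-higher. Large differences were far fewer: 142 genes (0.999%) passed and exceeded the largest spike shift, 66 higher on the left and 76 higher on the right. No gene list below held more than 2 such genes, so most calls in the lists were smaller than that shift. The 40 largest of these, 20 in each direction, kept their call and direction in every alternative that tested them, including the left-out arrays. Arrays without overlap were a condition of their choice, so the separation given below for any of these 40 is no further result.

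**Figure D2:**
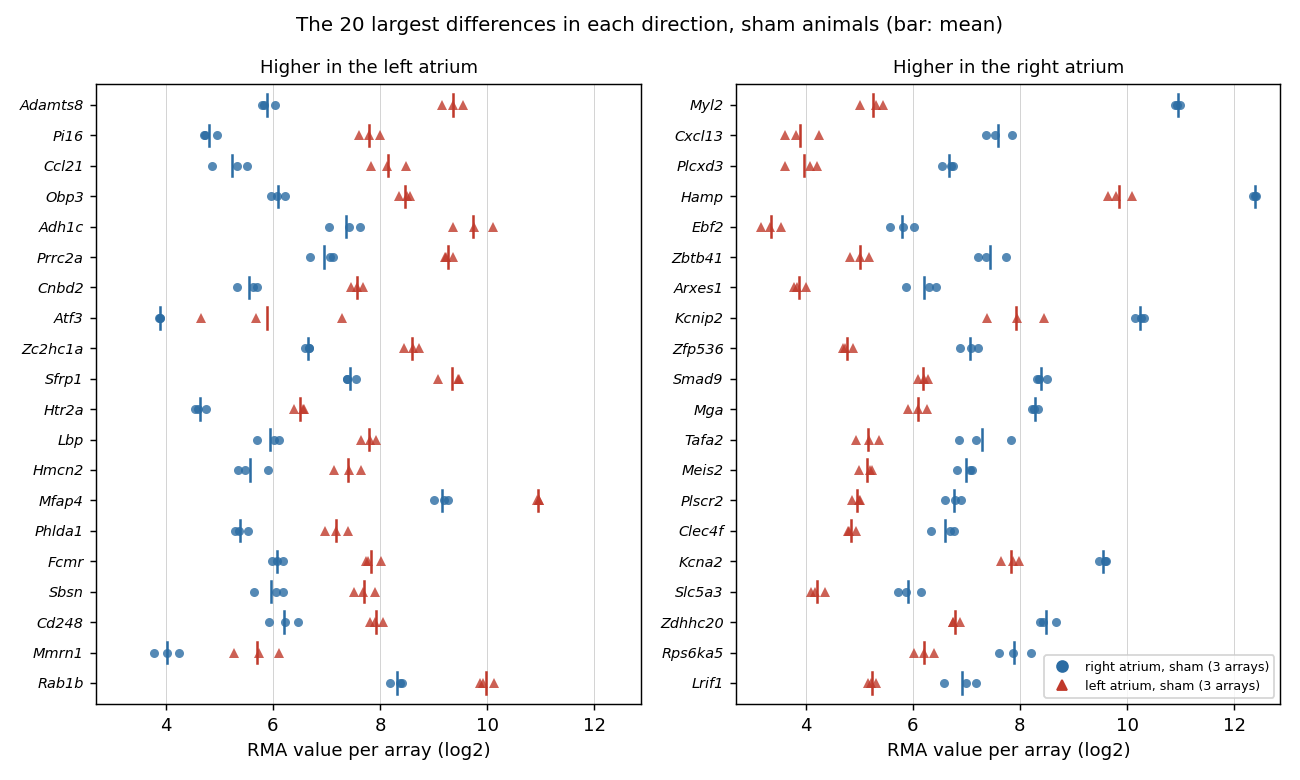
RMA values (x axis, log2) of the 20 genes with the largest difference in each direction on the 3 right (circles) and 3 left (triangles) sham arrays; bars are group means. The groups do not overlap for any of the 40 genes, a condition of the choice, and Atf3 is the gene whose left arrays lie widest apart, from 4.66 to 7.29.

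Patterning genes were first examined for the side-specific programme. Shox2, the homeobox gene of the sinus node, lay at 6.80, 6.60 and 6.83 on the right sham arrays and at 4.97, 5.04 and 5.32 on the left ones. All right arrays were higher, and the difference was -1.64 ± 0.14 (SE, n = 3 pools per group, adjusted p = 3.54e-06). The other 2 Shox2 probe sets differed by only -0.14 and -0.08 and did not pass, so the mean of all 3 was -0.62. Meis2, a homeobox cofactor of limb, neural and heart development, lay at 6.82 to 7.11 on the right and at 4.99 to 5.24 on the left (-1.85 ± 0.15, adjusted p = 2.47e-06). Hopx, a homeodomain protein without DNA binding that restrains cardiomyocyte growth, lay at 11.45 to 11.50 on the right and at 10.11 to 10.23 on the left (-1.32 ± 0.08, adjusted p = 4.66e-07). Right arrays were thus higher for all 3 genes without overlap, while 52.8% of all genes had no overlap in either direction. Hoxb2 (-0.75 ± 0.14, adjusted p = 0.00113) and Meox1 (-0.85 ± 0.21, adjusted p = 0.00735), positional homeobox genes, were also higher on the right. Of 14 measured homeobox genes of position these and Pbx3 were right-higher, Hoxd3 (0.34) was left-higher and 10 did not pass (28.6% past, below the 37.6% of all genes).

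Several other cardiac transcription factors were left-higher. Nkx2-5, the homeobox factor needed for heart muscle identity, lay at 10.15, 10.12 and 10.19 on the left and at 8.98, 9.13 and 9.25 on the right. The left arrays were all higher, by 1.03 ± 0.08 (adjusted p = 1.81e-06). Gata4 (0.66 ± 0.11, adjusted p = 0.000414) and Hand2 (0.69 ± 0.08, adjusted p = 2.92e-05), its partners in cardiac gene control, were higher on the left too, and each had another probe set with a larger difference, 1.14 and 1.25. Lbh, a cofactor of limb and heart development, was 1.11 ± 0.12 higher on the left (adjusted p = 2.37e-05). Of 20 measured cardiac transcription factors, 9 were left-higher, 3 right-higher and 8 did not pass (60% past, median 0.13). Averaged over the probe sets of each gene, 9 passed, 6 of them left-higher, and Hand1 (0.47 for its main probe set) fell to 0.12 and did not pass. Tbx5, which patterns the atria and the septum, did not pass at 0.05 ± 0.13 (adjusted p = 0.802), and its sign turned after quantile normalization again (-0.01).

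Other genes of laterality and of the sinus venosus, the embryonic inlet of the heart, showed small differences. Of 12 measured, Shox2 was right-higher and Lbh, Bmp4, Cfc1 and Isl1 were left-higher, while 7 did not pass (41.7% past, median 0.04). Bmp4, a ligand of the BMP pathway, was 0.67 ± 0.18 higher on the left (adjusted p = 0.0115), but did not pass without right atrium sham replicate 2 (0.57, adjusted p = 0.0522). Cfc1, a Nodal coreceptor, was 0.29 higher on the left and did not pass without right atrium sham replicates 1 (0.29) or 2 (0.28) or left atrium sham replicate 3 (0.19). The pacemaker factor Isl1, 0.25 higher on the left, did not pass without right atrium sham replicates 1 (0.20) or 2 (0.27) or left atrium sham replicates 2 (0.18) or 3 (0.25). Without right atrium sham replicates 1 or 2, or left atrium sham replicate 3, 3 genes of this list passed. Tbx18, a factor of the sinus horns, lay at 6.41 on each right array and at 6.42 to 6.46 on the left (0.04 ± 0.09, adjusted p = 0.767). Bmp10 is not analysed here.

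The largest difference of all belonged to a ventricular contractile gene. Myl2, the regulatory light chain of ventricular myosin, lay at 10.996, 10.93 and 10.90 on the right and at 5.45, 5.02 and 5.30 on the left. All right arrays were higher, with a difference of -5.69 ± 0.30 (SE, n = 3, adjusted p = 1.94e-07), a 51.6-fold difference. A dimmer probe set of Myl2 differed by -0.72 ± 0.13, and the mean of the 2 by -3.20. Myl3, the essential light chain of ventricular and slow muscle, lay at 10.10 to 10.17 on the right and at 8.99, 8.004 and 8.61 on the left (-1.60 ± 0.31, adjusted p = 0.0017). Hey2, a repressor that keeps ventricular muscle compact, differed by -0.90 ± 0.12 (adjusted p = 0.000132). Fhl2, a LIM protein of the sarcomere, differed by -0.95 ± 0.19 (adjusted p = 0.00166).

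Myl2, Myl3 and Hey2 belong to the list of ventricular cardiomyocyte markers, whose members parted. Myl2, Myl3, Hey2 and Irx4 were right-higher, Kcnj2, Cd36 and Mpped2 were left-higher, and Myh7 did not pass (87.5% past, median -0.72). The mean level of the 8 genes, in which Myl2 and Myl3 differ most, was 7.49 to 7.58 on the right sham arrays and 6.36 to 6.58 on the left ones. Irx4, a ventricular transcription factor, differed by -0.95 ± 0.34 (adjusted p = 0.0437), with values of 4.26 to 4.44 against 3.19 to 3.56. It did not pass in 8 of the 12 exclusions of 1 array, among them those of each sham array (-0.85 to -1.04), nor with the spike scaling (-0.72) or averaged over its probe sets (-0.31). Myh7, the slow myosin heavy chain, differed by -0.55 ± 0.22 (adjusted p = 0.0745), another probe set of it passed in the opposite direction (0.90), and the mean of its probe sets was 0.17. It passed with only the compared groups in the fit (adjusted p = 0.00819), and when left atrium shunt replicate 3 (adjusted p = 0.0434) or right atrium shunt replicate 1 (0.0318) or 2 (0.038) was left out. The deposited values carry no zeros and no detection calls, so presence or absence of these RNAs cannot be read. The part of ventricular tissue in these differences was not tested.

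Few atrial muscle genes passed. Of 14 measured atrial cardiomyocyte markers, only Stard10, a lipid transfer protein, passed (7.14% past, median -0.02). Stard10 lay at 12.13, 12.14 and 12.10 on the left and at 11.10 to 11.24 on the right, 0.98 ± 0.08 higher on the left with no overlap (adjusted p = 3.98e-06). Nppa, which encodes atrial natriuretic peptide, lay at 14.37 to 14.39 on the left and at 14.37 to 14.43 on the right, at the top of the array's scale where differences are compressed. Its difference was -0.03 ± 0.06 (adjusted p = 0.756), 0.20 with the spike scaling. Myl7, the atrial regulatory light chain, lay at 14.21 to 14.27 over the 6 arrays (-0.0049 ± 0.07, adjusted p = 0.966), also near that limit. Nppb differed by -0.14 ± 0.08 (adjusted p = 0.185), 0.09 with the spike scaling, and passed without left atrium sham replicate 1 (-0.23, adjusted p = 0.0373). The ultrarapid potassium current's channel, Kcna5, differed by 0.02 ± 0.14 (adjusted p = 0.925) with a negative sign without right atrium sham replicate 1 (-0.14) or left atrium sham replicate 2 (-0.09). Without left atrium sham replicate 1, 2 genes of this list passed; with the spike scaling 4 did, all left-higher, and averaged over the probe sets of each gene 5 did, 4 left-higher and 1 right-higher.

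Among other sarcomere genes the differences were small and mostly left-higher. Actn2, the Z-disc actinin, was 0.51 ± 0.06 higher on the left (adjusted p = 3.57e-05), and Tcap, which caps titin at the Z-disc, was 0.44 ± 0.09 higher (adjusted p = 0.00163). Of 27 measured sarcomere genes, 8 were left-higher and 5 right-higher, the latter including Myl2, Myl3 and Fhl2 (48.1% past, median 0.03). In the desmosomes, which hold muscle cells together, members parted. Dsc2 lay at 8.19 to 8.26 on the left and at 6.84 to 7.13 on the right (1.26 ± 0.11, adjusted p = 3.72e-06), and Jup, or plakoglobin, was 0.65 ± 0.09 higher on the left (adjusted p = 9.63e-05). Dsg2 differed by -0.47 ± 0.07 (adjusted p = 0.000164) and did not pass with the spike scaling. Of 16 connexin and junction genes 7 were left-higher and 2 right-higher (56.3% past, median 0.11), and Gja5, the atrial connexin, did not pass (0.07 ± 0.13, adjusted p = 0.693).

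Kcnip2 and Kcna2, potassium channel genes, were among the 20 largest right-higher differences. Kcnip2, the subunit that sets the density of the transient outward potassium current, lay at 10.25, 10.15 and 10.31 on the right and at 8.45, 7.39 and 7.94 on the left. The right arrays were all higher, as required of the 20 largest, with a difference of -2.31 ± 0.22 (adjusted p = 9.33e-06). Of its other probe sets, 1 passed in the same direction (-0.96) and 1 differed by -0.05, so that the mean was -1.11. Kcnd3, a pore subunit of the same current, differed by -0.63 ± 0.09 (adjusted p = 0.00012), with other probe sets past the threshold at -0.59 and, in the opposite direction, at 0.38, and a mean of -0.28. Kcna2, a delayed rectifier subunit, lay at 9.48 to 9.61 on the right and at 7.64 to 7.97 on the left (-1.73 ± 0.14, adjusted p = 3e-06), while its dim other probe set differed by 0.04 and the mean of both was -0.85.

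Other potassium channel genes were left-higher. Kcnh2, the hERG channel, differed by 0.71 ± 0.13 (adjusted p = 0.00111), Kcnj12, an inward rectifier, by 0.65 ± 0.12 (adjusted p = 0.00113), and Kcnn3, a calcium-activated channel, by 0.63 ± 0.09 (adjusted p = 0.00017). Of 28 potassium channel genes 8 were left-higher, 5 right-higher and 15 did not pass (46.4% past, median 0.01); without right atrium sham replicate 2, 8 passed, 4 each way. Scn7a, a sodium-sensing channel of glia and other cells, lay at 10.52 to 10.80 on the right and at 9.10 to 9.31 on the left (-1.42 ± 0.09, adjusted p = 6.92e-07). Cacna1h, a T-type calcium channel of pacemaking cells, lay at 6.73 to 6.85 on the right and at 5.64 to 5.67 on the left (-1.14 ± 0.11, adjusted p = 7.3e-06); its other probe set differed by 0.11 and did not pass, and the mean was -0.51. Both were higher on every right array, while 52.8% of all genes had no overlap in either direction. Of 22 sodium, calcium and chloride channel genes 3 were left-higher and 4 right-higher (31.8% past), but with the spike scaling 6 were left-higher and 2 right-higher.

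The conduction system list held calls at about the share of all genes. Of 15 measured genes, Shox2, Cacna1h, Vsnl1 and Cpne5 were right-higher and Isl1 left-higher (33.3% past, against 37.6% of all genes, median -0.06). Hcn4, the main pacemaker channel, lay at 5.51 to 5.57 on the right and at 5.43 to 5.71 on the left and did not pass (0.03 ± 0.09, adjusted p = 0.842; -0.04 without left atrium sham replicate 2). Without right atrium sham replicates 1, 2 or 3, 3 members passed, and without left atrium sham replicate 3, 2 did; with the spike scaling 5 of 7 calls were left-higher. Vsnl1, a calcium sensor, and Cpne5 lost their calls in several such exclusions, Vsnl1 (-0.45) without right atrium sham replicates 2 (-0.34) or 3 (-0.44) or left atrium sham replicates 1 (-0.40) or 3 (-0.41), as well as averaged over its probe sets (-0.23), and Cpne5 (-0.20) in 10 of 12.

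Of 23 receptors of the autonomic nerves and their signalling partners 8 passed, 34.8% against 37.6% of all genes, and none exceeded the largest spike shift. Adrb1, the main beta receptor of heart muscle, lay at 6.63, 6.36 and 6.62 on the left and at 5.49, 5.67 and 5.60 on the right, 0.95 ± 0.12 higher on the left (adjusted p = 6.69e-05). Chrm2, the muscarinic receptor that slows the heart, was 0.45 ± 0.11 higher on the left (adjusted p = 0.00512), and Adcy5, the cardiac adenylyl cyclase, 0.57 ± 0.08 higher (adjusted p = 0.000119). Gnao1, the alpha subunit of the Go protein, lay at 9.06 to 9.10 on the right and at 7.82 to 7.89 on the left (-1.23 ± 0.11, adjusted p = 5.16e-06). Receptor and G protein genes thus did not share a side. Of the 8 calls 5 were left-higher and 3 right-higher (median of the list 0.08), and with the spike scaling 12 of 13 calls were left-higher. Htr2a, a serotonin receptor outside that list, was 1.88 ± 0.11 higher on the left (adjusted p = 2.9e-07), with values of 6.39 to 6.57 against 4.54 to 4.75; the mean of its 4 probe sets was 0.87.

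In calcium handling the members also split. Trdn, or triadin, which ties the calcium store to its release channel, differed by -0.72 ± 0.08 (adjusted p = 1.93e-05), and Itpr1, a calcium release channel, by -0.45 ± 0.07 (adjusted p = 0.000372). S100a1, which activates the pump and the release channel, was 0.66 ± 0.13 higher (adjusted p = 0.00194), and Jph2, which holds the membranes together, 0.56 ± 0.08 higher (adjusted p = 0.000195). Of 18 genes 4 were left-higher and 6 right-higher (55.6% past), but with the spike scaling 7 of 8 calls were left-higher. None exceeded the largest spike shift by its main probe set. As the mean of its probe sets Trdn was -0.22, still past the threshold.

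Several genes of BMP signalling were right-higher, though of 30 measured genes of the TGF-beta and BMP list 16 did not pass. BMP ligands bind receptor pairs that phosphorylate SMAD1, SMAD5 and SMAD9, and these switch on the Id genes, the inhibitory SMADs and, in liver and heart, hepcidin, the hormone that lowers iron release from cells. Hamp, the hepcidin gene, lay at 12.40, 12.35 and 12.39 on the right and at 10.09, 9.64 and 9.79 on the left. Every right array was higher, with a difference of -2.54 ± 0.12 (SE, n = 3, adjusted p = 1.08e-07), a 5.82-fold difference. Smad9, the BMP receptor's SMAD, lay at 8.32, 8.50 and 8.35 on the right and at 6.21, 6.28 and 6.10 on the left (-2.19 ± 0.14, adjusted p = 7.25e-07). Its dim other probe set differed by -0.11, and the mean of both was -1.15. These 2 genes showed the largest differences among the members of the iron list and of the BMP list, and their promoters are therefore shown.

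The 250 bases before the annotated start of each gene are given from 5′ to 3′, from RefSeq on the GRCr8 assembly, with Hamp at chr1:95300272-95300521 on the minus strand and Smad9 at chr2:141106418-141106667 on the plus strand. Capitals mark GGCGCC, the core of the BMP-responsive element to which SMADs bind, a word that reads the same on both strands.
Hamp: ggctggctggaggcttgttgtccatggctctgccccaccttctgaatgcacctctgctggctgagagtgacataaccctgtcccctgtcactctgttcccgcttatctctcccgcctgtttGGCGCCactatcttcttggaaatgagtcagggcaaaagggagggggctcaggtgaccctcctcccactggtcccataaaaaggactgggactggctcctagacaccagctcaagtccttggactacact
Smad9: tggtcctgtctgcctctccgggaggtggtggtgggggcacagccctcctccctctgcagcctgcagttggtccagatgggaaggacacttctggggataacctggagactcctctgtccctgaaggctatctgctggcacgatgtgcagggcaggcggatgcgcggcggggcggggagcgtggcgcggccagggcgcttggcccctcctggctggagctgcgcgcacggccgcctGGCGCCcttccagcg
The match begins at position -129 from the start in Hamp and at -15 in Smad9. The letters occur in 2910 of 33469 such windows of all promoters in the table (8.695%), and not in those of Id1, Id2 and Id3. A match is a description of the sequence and not evidence of binding.

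Bmpr2, Smad6 and Id2 were right-higher as well. Bmpr2, the shared type 2 receptor, lay at 9.01, 8.65 and 9.001 on the right and at 7.59, 7.76 and 7.77 on the left (-1.17 ± 0.25, adjusted p = 0.003), its dim other probe set differed by -0.14, and the mean of both was -0.66. Smad6, the inhibitory SMAD that BMP signals induce, lay at 7.76 to 7.92 on the right and at 6.55 to 6.80 on the left (-1.13 ± 0.10, adjusted p = 5.84e-06). Its other 3 probe sets differed by 0.35, 0.12 and -0.15, none past the threshold, and the mean of all 4 was -0.20 and did not pass (adjusted p = 0.0552). Id2, an inhibitor of helix-loop-helix factors, lay at 10.83, 10.89 and 10.72 on the right and at 9.12, 9.57 and 9.49 on the left (-1.42 ± 0.28, adjusted p = 0.00171), with another probe set at -0.74. Right and left arrays did not overlap for any of the 3 genes, as for 52.8% of all genes. Among genes chosen after their values were seen, the receptor Bmpr1a (-0.70 ± 0.17, adjusted p = 0.00609), Smad7 (-0.70 ± 0.12, adjusted p = 0.00048), Id3 (-0.65 ± 0.13, adjusted p = 0.0015) and Id1 (-0.62 ± 0.11, adjusted p = 0.00112) were right-higher too. Chosen in this way, they are no separate evidence of a shared direction. Of the 30 genes of the list 16 did not pass and 4 were left-higher.

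Other genes of the list were left-higher. Besides Bmp4, Tgfb1, the ligand best known for fibrosis, was higher on the left, at 7.07, 6.88 and 6.88 against 6.04, 5.80 and 6.17 (0.93 ± 0.13, adjusted p = 0.000158). Tgfbr3, or betaglycan, was 0.71 ± 0.11 higher on the left (adjusted p = 0.000262). Of the 30 genes of the list 10 were right-higher and 4 left-higher (46.7% past, median -0.06). With the spike scaling 9 were right-higher and 7 left-higher, and averaged over the probe sets of each gene 6 were called in each direction. Of 12 iron genes, Cp, or ceruloplasmin, was the other right-higher member, at 8.64 to 8.79 against 7.67 to 7.85 (-0.95 ± 0.08, adjusted p = 5.53e-06). Hjv, the BMP coreceptor of muscle and liver that controls hepcidin, was 0.44 ± 0.09 higher on the left (adjusted p = 0.00151), and Hfe (0.47), Slc40a1 (0.44), the iron exporter that hepcidin blocks, and Ireb2 (0.61) were left-higher as well (50% past). Averaged over its probe sets Slc40a1 differed by 0.14 and did not pass (adjusted p = 0.127).

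**Figure D3:**
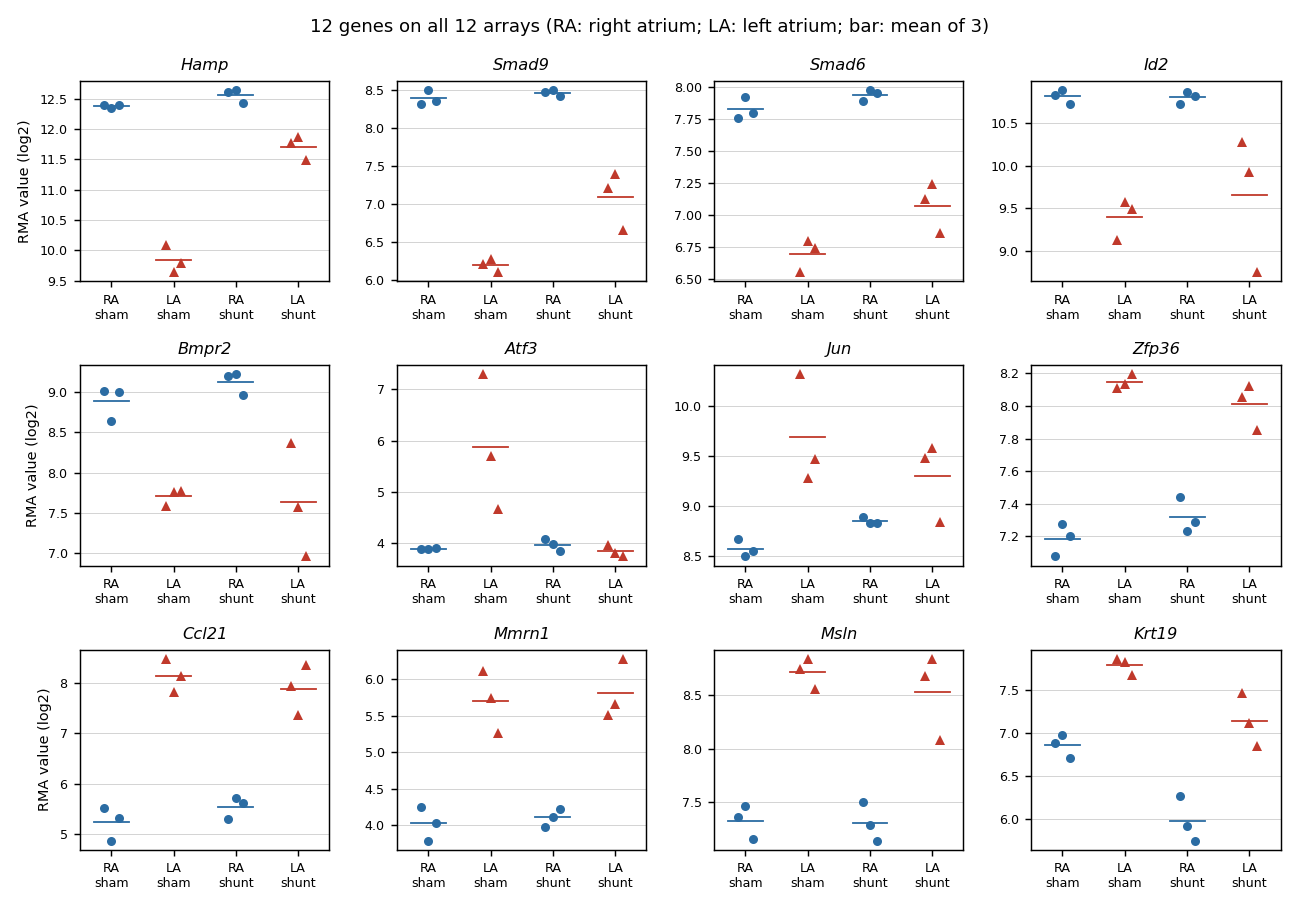
RMA values (y axis, log2, each panel on its own scale) of 12 genes on all 12 arrays, with right atrium (RA) as circles and left atrium (LA) as triangles; bars are means of 3 arrays. Hamp, Smad9, Smad6, Id2 and Bmpr2 are higher on every right array in sham, Ccl21, Mmrn1, Msln and Krt19 on every left one, and Atf3 spreads from 4.66 to 7.29 on the left sham arrays.

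Secreted regulators of the Wnt pathway differed in opposite directions. Sfrp1, a decoy receptor for Wnt ligands, lay at 9.08, 9.48 and 9.46 on the left and at 7.38, 7.55 and 7.39 on the right, 1.90 ± 0.10 higher on the left (adjusted p = 2.25e-07), and its other 2 probe sets gave 1.95 and 1.18. Its relative Sfrp2 lay at 7.47 to 7.65 on the right and at 6.27 to 6.66 on the left (-1.08 ± 0.19, adjusted p = 0.000766). Wif1, another Wnt inhibitor, differed by -0.83 ± 0.16 (adjusted p = 0.00127), and the receptor Fzd2 was 0.79 ± 0.10 higher on the left (adjusted p = 6.03e-05). Of 21 genes 6 were left-higher and 4 right-higher (47.6% past, median 0.12). Wnt2, a ligand of the embryonic inlet, did not pass (-0.06 ± 0.08, adjusted p = 0.638; 0.17 with the spike scaling).

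Most matrix genes that passed were left-higher. Adamts8, a secreted protease of the matrix, showed the largest left-higher difference. It lay at 9.17, 9.55 and 9.36 on the left and at 5.79, 5.83 and 6.03 on the right, 3.47 ± 0.15 higher on the left (SE, n = 3, adjusted p = 6.92e-08), an 11.1-fold difference. Pi16, a marker of the adventitial fibroblasts around vessels, lay at 7.99, 7.61 and 7.79 on the left and at 4.72, 4.72 and 4.95 on the right (2.998 ± 0.22, adjusted p = 1.31e-06), and its other probe set gave 1.84. Left arrays were higher for both without overlap, a condition of the choice of the 20 largest. Mfap4, a microfibril protein of elastic fibres (1.80 ± 0.10, adjusted p = 2.25e-07), Hmcn2, a hemicentin of the basement membrane (1.83 ± 0.20, adjusted p = 2.41e-05), and Cd248, or endosialin, of fibroblasts and pericytes (1.72 ± 0.14, adjusted p = 3.84e-06), were among the 20 largest as well; averaged over its probe sets Cd248 differed by 0.99.

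Fibrillar collagens followed. Col1a1 lay at 11.72, 11.80 and 11.70 on the left and at 10.54, 10.49 and 10.68 on the right (1.17 ± 0.11, adjusted p = 9.1e-06), and Col1a2 was 0.86 ± 0.13 higher on the left (adjusted p = 0.000238; 0.52 averaged over its probe sets). Prelp, a leucine-rich proteoglycan of connective tissue, was 1.20 ± 0.14 higher (adjusted p = 3.5e-05), and Fmod, a collagen-binding proteoglycan, 1.11 ± 0.24 (adjusted p = 0.00335). Lox, the enzyme that crosslinks collagen and elastin, was right-higher, at 7.79 to 7.99 on the right against 6.53 to 6.62 on the left (-1.29 ± 0.14, adjusted p = 2.85e-05). Of 38 matrix genes 17 were left-higher and 4 right-higher (55.3% past, median 0.28), and only Lox exceeded the largest spike shift. The mean level of the list was 8.79 to 8.83 on the left arrays and 8.50 to 8.55 on the right ones. General fibroblast markers did not all follow: of 10, Pi16, Col1a1 and Col1a2 were left-higher, Dcn, or decorin, was right-higher (-0.31 ± 0.09, adjusted p = 0.0182) and 6 did not pass (40% past). Dcn did not pass with the spike scaling, nor without right atrium sham replicate 1 (-0.25) or left atrium sham replicate 2 (-0.27).

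Markers of lymphatic vessels were high in the left atrium. Ccl21, the chemokine of lymphatic endothelium that guides dendritic cells and T cells, lay at 8.48, 7.82 and 8.13 on the left and at 5.51, 4.87 and 5.32 on the right (2.91 ± 0.24, adjusted p = 3.47e-06). Mmrn1, a multimerin of lymphatic endothelium and platelets, lay at 6.11, 5.74 and 5.26 on the left and at 4.25, 3.78 and 4.03 on the right (1.68 ± 0.22, adjusted p = 8.59e-05). Pdpn, or podoplanin, was 0.81 ± 0.13 higher on the left (adjusted p = 0.000409). The groups did not overlap for these 3 genes. Of 7 lymphatic markers these and Flt4 were left-higher, Prox1 was right-higher (-0.42 ± 0.08, adjusted p = 0.00111), and Lyve1 (0.15) and Reln (0.09) did not pass (71.4% past). Another probe set of Prox1 passed in the opposite direction (0.28) and the mean did not pass (-0.07), and with the spike scaling all 6 calls of this list were left-higher. Flt4 (0.32) did not pass without right atrium sham replicates 1 (0.31) or 3 (0.25) or left atrium sham replicates 1 (0.24) or 2 (0.31). The list mean was 7.03 to 7.30 on the left sham arrays and 6.26 to 6.46 on the right ones. Mesothelial markers, given next, were higher on the left too, and their part in these differences was not tested.

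The mesothelium, the outer covering of the heart, was also more visible on the left. Msln, or mesothelin, lay at 8.75, 8.84 and 8.56 on the left and at 7.36, 7.47 and 7.15 on the right (1.39 ± 0.17, adjusted p = 5.35e-05). The keratins Krt19 (0.94 ± 0.15, adjusted p = 0.000481), Krt8 (0.82 ± 0.15, adjusted p = 0.00103) and Krt7 (0.53 ± 0.10, adjusted p = 0.00163) were left-higher as well. Of 9 markers 6 were left-higher and none right-higher (66.7% past, median 0.53), and this held with the spike scaling. Only Msln exceeded the largest spike shift. Wt1, the epicardial transcription factor, was at -0.23 and did not pass. Of the 6, Upk1b (0.71) and Krt18 (0.48) lost their calls when single sham arrays were left out, Upk1b without any sham array except right atrium sham replicate 2 (0.58 to 0.78) and Krt18 without right atrium sham replicates 1 (0.39) or 3 (0.35) or left atrium sham replicates 1 (0.48) or 2 (0.44). The list mean was 6.42 to 6.62 on the left and 5.77 to 6.17 on the right. Upk3b, Cldn15 and Itln1, other mesothelial markers, are not analysed here.

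Vessel wall genes were mostly left-higher, but no smooth muscle or endothelial marker exceeded the largest spike shift by its main probe set. Smtn, or smoothelin, of contractile smooth muscle, lay at 9.73 to 9.78 on the left and at 8.60 to 8.74 on the right (1.11 ± 0.09, adjusted p = 2.57e-06). Tagln, a smooth muscle actin-binding protein (0.85 ± 0.09, adjusted p = 2.35e-05), and Myh11, the smooth muscle myosin heavy chain (0.60 ± 0.08, adjusted p = 7.06e-05), followed. Of 12 smooth muscle and pericyte markers (75% past) 8 were left-higher and 3 did not pass. Abcc9, a potassium channel subunit of pericytes and muscle, was right-higher (-0.42 ± 0.08, adjusted p = 0.00123, not past the threshold with the spike scaling). Of 10 endothelial markers (60% past) 5 were left-higher, among them Tie1, a vascular receptor (0.74 ± 0.07, adjusted p = 1.33e-05). Kdr, the main VEGF receptor, was right-higher, at 9.56 to 9.84 against 8.83 to 9.02 (-0.79 ± 0.09, adjusted p = 3.6e-05; -0.50 averaged over its probe sets). Without right atrium sham replicate 2, 3 endothelial markers passed, 2 of them left-higher. Of 8 endocardial markers Npr3 (0.73 ± 0.11, adjusted p = 0.000195), the clearance receptor for natriuretic peptides, Plvap (0.67) and Hapln1 (0.43) were left-higher and 5 did not pass (37.5% past, the share of all genes being 37.6%).

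**Figure D4:**
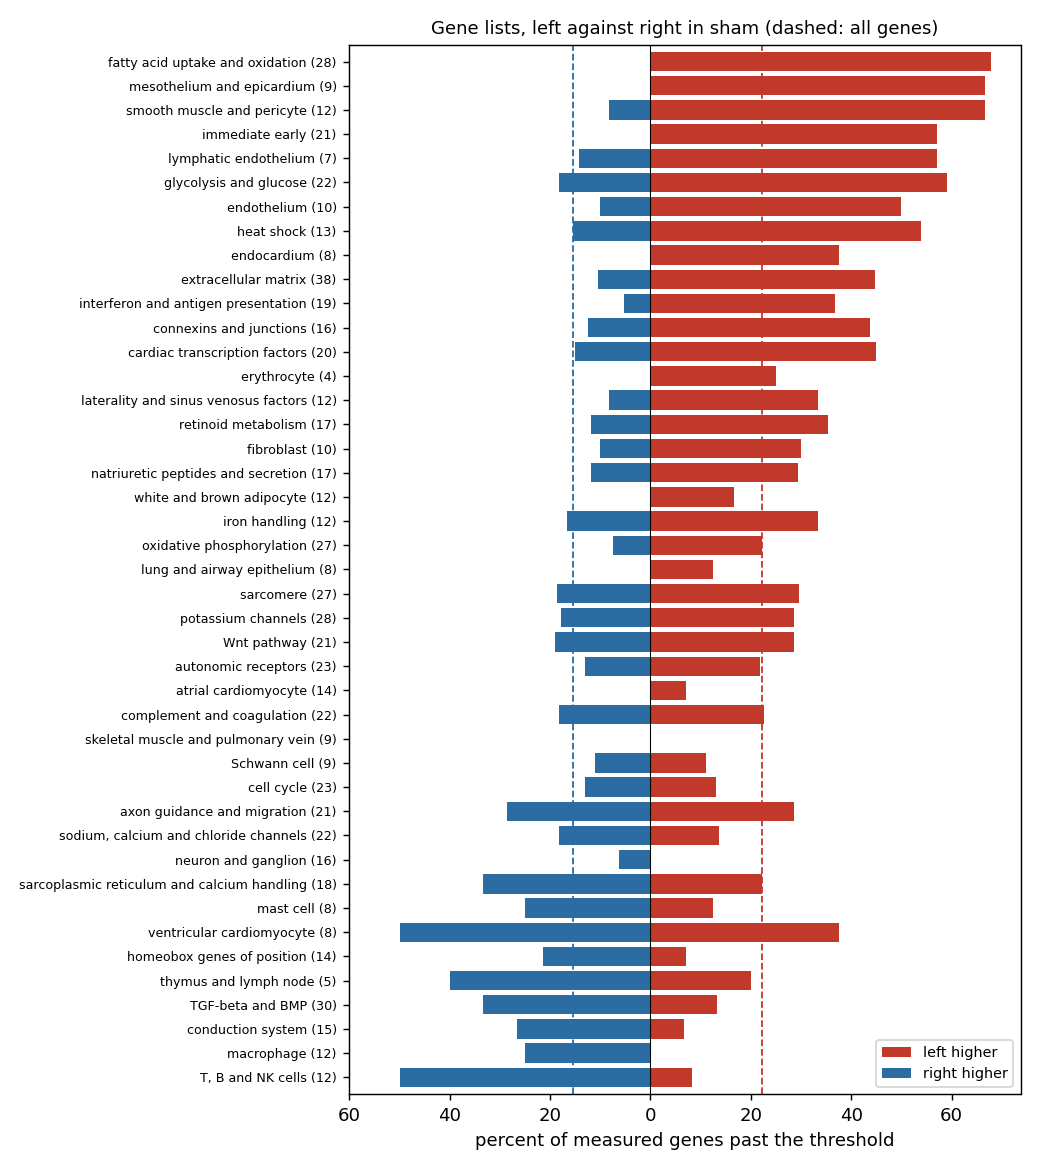
Share of the measured genes of each list (number in parentheses) past the threshold in sham animals, left-higher to the right of 0 and right-higher to the left of it (x axis, percent). The threshold does not ask for a difference above the largest spike shift. Dashed lines give the shares over all genes, 22.2% and 15.4%; fatty acid, mesothelial and smooth muscle lists reach far past the left-higher line, and lymphocyte, ventricular and BMP lists past the right-higher one.

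Cxcl13, the chemokine that draws B cells, lay at 7.85, 7.53 and 7.36 on the right and at 3.81, 3.61 and 4.25 on the left. Every right array was higher, with a difference of -3.69 ± 0.19 (SE, n = 3, adjusted p = 1.94e-07), a 12.9-fold difference. Adgre1, a surface receptor of mature macrophages, lay at 5.86 to 6.09 on the right and at 4.64 to 4.85 on the left (-1.26 ± 0.14, adjusted p = 2.93e-05), and Cd163, a scavenger receptor of resident macrophages, differed by -0.57 ± 0.12 (adjusted p = 0.00321; not past the threshold with the spike scaling). Of 12 macrophage markers these and C1qa were right-higher and 9 did not pass (25% past, below the 37.6% of all genes, median -0.12). With the spike scaling 1 was right-higher and 1 left-higher. C1qa (-0.35) did not pass without right atrium sham replicates 2 (-0.32) or 3 (-0.31) or left atrium sham replicates 1 (-0.26) or 3 (-0.35), and without left atrium shunt replicate 3, which adds to the estimate of the spread, 5 markers passed.

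Lymphocyte markers were low on the scale but parted by side. Of 12 markers of T, B and NK cells 6 were right-higher, 1 left-higher and 5 did not pass (58.3% past, median -0.27). Ptprc, the CD45 antigen of all leukocytes, lay at 6.36 to 6.66 on the right and at 5.32 to 5.82 on the left (-0.92 ± 0.16, adjusted p = 0.000819; -0.58 averaged over its probe sets). Nkg7 (-0.51), Cd3e (-0.49), Cd3g (-0.44) and Prf1 (-0.39), genes of cytotoxic and T cells, were right-higher in the deposited scaling, but with the spike scaling none of these 4 passed, and 3 of the list's 4 calls were left-higher. Left-higher immune genes included Lbp, which binds bacterial lipopolysaccharide (1.84 ± 0.14, adjusted p = 2.18e-06), and Fcmr, the IgM receptor of lymphocytes (1.76 ± 0.18, adjusted p = 1.61e-05), both among the 20 largest. Of 5 measured markers of thymus and lymph node, Ccl21 was left-higher, Cxcl13 and Ccl19 (-0.36) right-higher, and Cd8b and Cr2, the latter of B and follicular dendritic cells, did not pass. Ccl19 did not pass without any 1 of right atrium sham replicates 1 (-0.36), 2 (-0.38) and 3 (-0.33) or left atrium sham replicates 2 (-0.33) and 3 (-0.31), nor with the spike scaling (-0.13, adjusted p = 0.523).

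Genes of fatty acid use that passed were left-higher. Acads, the short-chain enzyme of fatty acid oxidation, lay at 9.47, 9.31 and 9.50 on the left and at 8.03, 7.999 and 8.18 on the right (1.36 ± 0.08, adjusted p = 3.77e-07). Of 28 genes that take up or oxidise fatty acids 19 were left-higher, none right-higher and 9 did not pass (67.9% past, median 0.32). Mlycd, which removes malonyl-CoA, the brake of fatty acid entry (0.62 ± 0.08, adjusted p = 6.04e-05), Slc27a1, a fatty acid transporter (0.58 ± 0.08, adjusted p = 0.000144), and Ppara, the transcription factor of the pathway (0.51 ± 0.11, adjusted p = 0.00242), were among them. Of this list only Acads exceeded the largest absolute spike shift, 1.25, and the differences of Mlycd, Slc27a1 and Ppara were smaller. The list mean was 10.22 to 10.24 on the left arrays and 9.87 to 9.91 on the right ones.

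Most glucose genes that passed were left-higher too. The hexokinases Hk1 (1.18 ± 0.07, adjusted p = 5.37e-07) and Hk2 (1.19 ± 0.18, adjusted p = 0.000235), which trap glucose in the cell, were left-higher; the mean of all Hk1 probe sets was 0.53. Pygm, the muscle glycogen phosphorylase, was 0.77 ± 0.07 higher (adjusted p = 7.84e-06), and its other 2 probe sets gave 1.72 and 1.36. Slc2a1, the basal glucose transporter, lay at 7.02 to 7.09 on the right and at 5.84 to 6.07 on the left (-1.08 ± 0.09, adjusted p = 4.63e-06), whereas Slc2a4, the insulin-sensitive one, was at 0.59. Of 22 glucose genes 13 were left-higher and 4 right-higher (77.3% past, median 0.28), none above the largest spike shift by its main probe set. The respiratory chain list stayed below the background, with 6 of 27 left-higher and 2 right-higher (29.6% past, median -0.01). Without right atrium sham replicate 2, 4 of its members passed, and without left atrium sham replicates 1 or 3, 5 did. With the spike scaling 12 passed, all left-higher.

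Immediate early genes, which respond within minutes to stretch, nerve signals or handling, were higher on the left in sham animals. Atf3, a stress transcription factor, lay at 7.29, 5.69 and 4.66 on the left and at 3.88, 3.89 and 3.89 on the right. All left arrays were higher but far apart, and the difference was 2.00 ± 0.44 (adjusted p = 0.00338). This SE draws on all 4 groups and understates the spread of the left sham arrays. Left atrium sham replicate 1 was the highest array, and without it the difference was 1.29. Fosb (1.22 ± 0.32, adjusted p = 0.00941) and Nr4a1 (0.98 ± 0.27, adjusted p = 0.0136), other members of this response, were highest on the same array, at 5.77 and 9.86, and without it they differed by 0.72 and 0.60. Jun, at 10.31, 9.28 and 9.47 against 8.50 to 8.67, was 1.12 ± 0.23 higher on the left (adjusted p = 0.00224). Zfp36, which shortens the life of inflammatory mRNAs, was more even, at 8.11 to 8.19 against 7.08 to 7.28 (0.96 ± 0.09, adjusted p = 7.66e-06), as was Ier2 (1.02 ± 0.12, adjusted p = 4.08e-05).

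Of 21 immediate early genes 12 were left-higher, none right-higher and 9 did not pass, Fos (0.85 ± 0.43, adjusted p = 0.139) and Egr1 (0.74 ± 0.28, adjusted p = 0.0579) among them (57.1% past, median 0.74). Only Atf3 exceeded the largest spike shift. The mean of the list was 7.80, 7.14 and 7.27 on left sham replicates 1, 2 and 3 and 6.65 to 6.84 on the right sham arrays. In the shunt animals the list's median difference was 0.04, and Atf3 lay at 3.73 to 3.96 on the left and at 3.83 to 4.08 on the right. The difference of Atf3 between sham and shunt did not pass the interaction test (adjusted p = 0.188).

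Several of the largest differences fell outside all lists. On the right, Plcxd3, a phospholipase-like protein, lay at 6.75, 6.54 and 6.71 against 3.61, 4.07 and 4.22 (-2.70 ± 0.16, adjusted p = 3.55e-07), and Ebf2, a transcription factor of brown fat precursors and neurons, at 6.02, 5.81 and 5.58 against 3.17, 3.33 and 3.54 (-2.46 ± 0.18, adjusted p = 1.62e-06). Right arrays were higher for both without overlap, as required of the 20 largest. Arxes1, an adipocyte gene with a close copy that the probes may not tell apart, differed by -2.33 ± 0.14 (adjusted p = 3.77e-07), while of 12 adipocyte markers Lipe, the hormone-sensitive lipase (1.18 ± 0.09, adjusted p = 1.62e-06), and Fabp4 (0.39) were left-higher and 10, Ucp1 (-0.06), Adipoq (-0.31) and Plin1 (-0.16) among them, did not pass. Another probe set of Lipe passed in the opposite direction (-0.29), and the mean was 0.44. The transcription regulators Zbtb41 (-2.44), Zfp536 (-2.29) and Mga (-2.19), the secreted Tafa2 (-2.12), the scramblase Plscr2 (-1.80), the Kupffer cell lectin Clec4f (-1.76), the inositol transporter Slc5a3 (-1.71), the palmitoyltransferase Zdhhc20 (-1.70), the kinase Rps6ka5 (-1.69) and Lrif1 (-1.68), a factor of the inactive X chromosome, complete the right-higher 20. Averaged over the probe sets of each gene, Zfp536 differed by -0.86, Mga by -1.45, Slc5a3 by -0.88 and Rps6ka5 by -0.78, all still past the threshold.

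On the left, Obp3, a lipocalin of a family with near-identical copies, lay at 8.35, 8.50 and 8.56 against 5.97, 6.07 and 6.23 (2.38 ± 0.19, adjusted p = 2.24e-06). Adh1c, an alcohol dehydrogenase that also oxidises retinol, lay at 9.37, 10.11 and 9.76 against 7.05, 7.62 and 7.42 (2.38 ± 0.23, adjusted p = 1.13e-05). Both were higher on every left array, as required of the 20 largest, though probe sets of such families may share transcripts. The RNA-associated Prrc2a (2.32), Cnbd2 (2.02), Zc2hc1a (1.95), the apoptosis-linked Phlda1 (1.79), suprabasin or Sbsn (1.74) and the membrane traffic protein Rab1b (1.65) complete the left-higher 20. Averaged over the probe sets of each gene, Cnbd2 differed by 1.02 and Zc2hc1a by 1.19, both still past the threshold.

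Few nerve markers passed. Gap43, a protein of growing axons and of Schwann cells, lay at 6.10, 6.60 and 6.28 on the right and at 5.16, 5.44 and 5.07 on the left (-1.10 ± 0.15, adjusted p = 9.86e-05; -0.50 averaged over its probe sets), and of 16 neuron and ganglion markers no other passed (6.25% past). With left atrium shunt replicate 3 left out, 3 passed. The count was 2 without replicate 1 of either left group, replicates 2 or 3 of right atrium sham, or replicates 1 or 2 of right atrium shunt. With the spike scaling it was 6, of which 5 were left-higher. Of 9 Schwann cell markers Gfra3, a receptor, was right-higher (-0.72 ± 0.08, adjusted p = 2.2e-05), Mal, a myelin protein, was left-higher (0.57) and 7 did not pass (22.2% past). None of 9 skeletal muscle markers passed in limma's test (1 without replicate 3 of either shunt group, replicate 2 of right atrium shunt or replicate 2 of left atrium sham, and 6 with the spike scaling). Of 8 lung markers Ager did (0.51 ± 0.09, adjusted p = 0.000704), and 2 did without right atrium shunt replicate 2 or left atrium sham replicate 2.

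The shunt arrays gave the same contrast in other animals. There 5751 of 14217 genes passed (40.5%). Of the 11214 probe sets called in sham, 10614 (94.6%) had the same sign in shunt animals, 7464 (66.6%) passed there with that sign, and 41 passed with the opposite sign. Of the 142 genes above the largest spike shift in sham, 141 kept the sign and 140 passed in shunt animals; Atf3 (-0.13) did neither, and Pla2g2a, a secreted phospholipase, was at 0.09 after 1.42 in sham and did not pass. The median ratio of the shunt to the sham difference over the 142 genes, which were picked for their size in sham, was 81.3%. Myl2 differed by -6.38 in shunt animals, Cxcl13 by -2.51, Shox2 by -1.39, Adamts8 by 2.71, Pi16 by 2.62 and Ccl21 by 2.35. The spike controls were shifted there too, by -1.35 to 0.13.

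**Figure D5:**
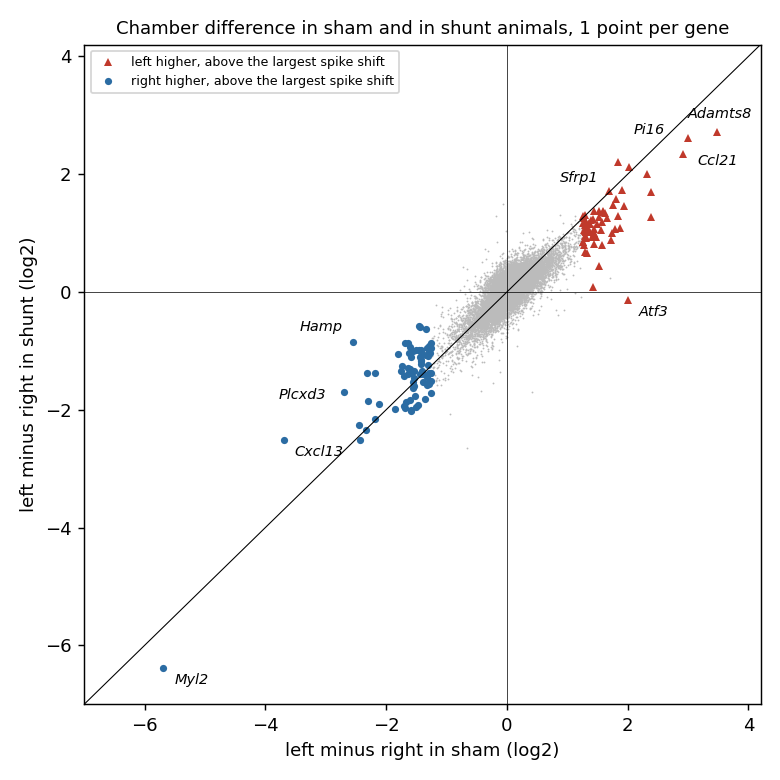
Left minus right difference in sham (x axis, log2) against that in shunt animals (y axis, log2), 1 point per gene; the diagonal marks equal differences. Coloured points are the 142 genes past the threshold and above the largest spike shift in sham, of which 141 keep their sign; Hamp (-2.54 and -0.85) and Atf3 (2.00 and -0.13) lie off the diagonal.

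Few chamber differences were shown to differ between sham and shunt. The interaction test called 8 of 31042 probe sets (0.0258%), and 4 of 14217 genes by their main probe set (0.0281%); 4467 probe sets had an unadjusted p under 0.05. Hamp had the largest change among the called probe sets. It lay at 12.61, 12.64 and 12.42 on the right shunt arrays and at 11.77, 11.87 and 11.49 on the left ones, so that the chamber difference was -0.85 after shunt and -2.54 in sham, a change of 1.69 ± 0.17 (SE, adjusted p = 0.00753). The other calls with a gene name were Zfp292 (-0.68 in sham and 0.16 in shunt), Acyp2 (-1.08 and -0.25), Larp4b (-1.70 and -0.67) and the lymphocyte chemokine receptors Cxcr5 (-0.42 and 0.51) and Ccr6 (-0.08 and 0.64), and 2 called probe sets have no gene name. The count hung on single arrays: it was 0 without right atrium sham replicate 1, 1 without left atrium sham replicates 2 or 3 or right atrium shunt replicate 2, 2 without right atrium sham replicate 2, 3 without left atrium shunt replicate 2, 4 without left atrium sham replicate 1 and 21 without left atrium shunt replicate 3.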

How the data were processed

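Arrays of 12 pooled samples were used, in 4 groups of 3 (right or left atrium, sham or shunt). The authors deposited log2 values per probe set, made by RMA (background correction, quantile normalization and summary of probes) per the submitters' processing notes; the software version is not given in the sources used here. Arrays give no counting depth, and their number limits the precision.

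Of 31099 probe sets, 57 controls were left out and 31042 were tested with limma 3.58.1 (R 4.3.3) on all 12 arrays, with a mean per group (8 residual degrees of freedom) and Benjamini-Hochberg adjustment over all probe sets; every adjusted p here comes from limma. The threshold was 0.05, and contrasts were left minus right in sham, in shunt, and their difference. In the platform annotation 20826 probe sets name 1 gene, 436 several and 9780 none; a gene is represented by its probe set with the highest mean over 12 arrays. On simulated data with 200 changed probe sets the sham test called 54% of changes of 0.5, 94% of 1, 90% of 1.5 and 98% of 2 (log2), and 3.45% of its calls were false. The simulation added no shift between arrays or chambers and changed far fewer probe sets than the 36.1% called here. Its shares therefore need not hold for these data.

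Genes were named by a rule: the 20 largest differences per direction among genes past the threshold, above the largest spike shift and with no overlap between chambers, up to 6 called members per list, and a set of atrial genes whatever their values. Acyp2, Adipoq, Bmpr1a, Ccr6, Cd8b, Cr2, Cxcr5, Egr1, Fos, Id1, Id3, Kcnj2, Larp4b, Lyve1, Nrp2, Pla2g2a, Plin1, Reln, Slc2a4, Smad7, Ucp1, Wt1 and Zfp292 fall outside it and were chosen after their values were seen. The comparison and the lists were chosen with earlier results of these data known. Alternatives were another scaling (quantiles, array medians, spike controls), a filter on dim probe sets, other variance options, array weights, the replicate block, the compared groups alone, other ways to represent a gene, and leaving out each array.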

Additional observations from a re-analysis of the deposited data

Results flagged for a closer look

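The chamber difference of Hamp, the hepcidin gene, was not the same in sham and shunt animals in limma's interaction test. It was -2.54 in sham and -0.85 after the shunt, a change of 1.69 ± 0.17 on the log2 scale (adjusted p = 0.00753). The 3 left shunt arrays lay at 11.49 to 11.87 and the 3 left sham arrays at 9.64 to 10.09, while the right arrays lay at 12.35 to 12.64 in both conditions.
Without right atrium sham replicate 1 no probe set passed this test, Hamp included.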

How the results depend on the processing

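All 40 largest differences kept their call and direction in every alternative that tested them; of 224 named genes past the threshold, 165 did so in all alternatives and 59 lost the call in at least 1. The sham count of 11214 probe sets was 5621 with 1 probe set per gene, 5804 with a gene's probe sets averaged, and 9016 to 12309 with 1 array left out. The 485 above the spike shift became 142, 104 and 443 to 531. The shunt count of 11690 became 6097, 6249 and 8913 to 11578, and 22218 with the spike means subtracted. The interaction count of 8 was 19 without dim probe sets, 4 with array medians subtracted, 15 with the trend and robust options, 15 with array weights and 0 to 21 with 1 array left out.

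The main fit treated the arrays as unpaired, and the labels do not say whether same-numbered left and right pools share animals. Correlations of same-numbered deviations were 0.097, 0.148 and 0.079 in sham and 0.134, 0.143 and 0.095 in shunt. Those of differently numbered arrays were all negative, -0.089 to -0.012 in sham and -0.086 to -0.041 in shunt. Each sample thus correlated best with its own number, and sharing of animals was not tested. With the replicate block 11199 sham, 11601 shunt and 3 interaction probe sets passed. Among named genes it gave Myh7 a call in sham (adjusted p = 0.0455) and took that of Cpne5 (adjusted p = 0.0979), and 10 cell cycle genes and 3 neuron and ganglion markers passed.

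Signs turned for Cpne5 (0.028), Cyc1 (0.020), Nppa (0.20), Nppb (0.088), Myl7 (0.23) and Wnt2 (0.17) with the spike scaling, and for Cpne5 (0.025), Slc8a1 (0.62), Hspb8 (0.14) and Myh7 (0.17) with probe sets averaged. With quantile normalization again they turned for Tbx5 (-0.012), Kcna5 (-0.00057) and Myl7 (0.014), for Myl7 (0.0077) with array medians subtracted, and for Kcna5 (-0.021) with array weights. With 1 array left out, values ran from -0.045 to 0.093 for Hcn4, -0.14 to 0.12 for Kcna5, -0.020 to 0.014 for Myl7, -0.074 to 0.22 for Gja5, -0.10 to 0.0031 for Wnt2 and -0.044 to 0.044 for Prrx1. The cause was not tested. Among 1971 called genes with further probe sets, 311 (15.8%) had another called in the opposite direction, against 5 of 62 (8.06%) above the spike shift. Values near the bottom or top of the scale understate differences.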

Other observations

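Guidance cues of nerves and vessels parted between the chambers. Of 21 such genes 6 were left-higher, 6 right-higher and 9 did not pass (57.1% past, median -0.01). The left-higher ones included the semaphorins Sema3a (1.01) and Sema3c (0.99) and the netrin Ntn1 (0.80), and the right-higher ones the netrin receptor Unc5b (-1.22, or -0.66 averaged over its probe sets) and the neuropilin Nrp2 (-0.53). Of 17 retinoid genes 6 were left-higher and 2 right-higher (47.1% past), led by the receptor Rarg (1.04) and, on the right, by Aldh1a1 (-0.88), which makes retinoic acid; 5 passed without replicate 1 of either sham group. Of 17 genes of natriuretic peptides and secretion 5 were left-higher and 2 right-higher (41.2% past, against 37.6% of all genes). The right-higher ones were Agt, or angiotensinogen (-1.09), and Adm, or adrenomedullin (-0.60).

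Heat shock genes were mostly left-higher, with 7 of 13 up on the left and 2 on the right (69.2% past), led by the small chaperones Hspb7 (0.96) and Hspb1 (0.78). None exceeded the largest spike shift by its main probe set. Of 19 interferon and antigen presentation genes 7 were left-higher and 1 right-higher (42.1% past, against 37.6% of all genes). Of these genes 4 passed without right atrium sham replicate 1 or left atrium sham replicate 2, and 5 without replicate 3 of either sham group. Of 22 complement and coagulation genes 5 were left-higher, among them fibrinogen Fgg (0.95) and tissue factor F3 (0.82), and 4 right-higher (40.9% past, against 37.6% of all genes). Cell cycle genes stayed below the share of all genes (26.1% past of 23), with 3 left-higher and 3 right-higher. Cdkn1a, a brake of the cycle, was at 0.95, and the cyclins Ccnd1 and Ccnd2 were at -1.04 and -0.91. Both cyclins lost their calls when single sham arrays were left out. Without right atrium sham replicates 1 or 3, 3 genes of this list passed.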
